A study of Mus musculus with 12 samples.

Results

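Nuclear receptors other than the retinoid receptors were followed in laser-captured epithelium and stroma of mouse mammary tumours with and without retinoic acid receptor beta. The set of 35 genes was named by symbol, and its members were found among the 20660 genes that the array probes could be named for, by matching probe accessions to RefSeq genes. The tumours came from mice of strain FVB carrying MMTV-Wnt1, a transgene in which the mouse mammary tumour virus promoter drives the Wnt1 oncogene in mammary epithelium, and all groups share it. There were 4 groups of 3 arrays: stroma from Rarb -/- tumours (KO stroma), stroma from Rarb +/+ tumours (WT stroma), epithelium from Rarb -/- tumours (KO epithelium) and epithelium from Rarb +/+ tumours (WT epithelium). The titles give stroma and epithelium matching genotypes and numbers, and samples that share both were taken as the same tumour, which the titles do not state. This gives 3 KO tumours (numbered 1, 3 and 4) and 3 WT tumours (numbered 1, 2 and 3). The labels name no age, and they do not state whether the tumours are from separate animals, so the p-values below measure the spread between these samples only. Each array compared Cy3-labelled tumour RNA with a Cy5-labelled universal mouse reference RNA, and a value below is the log2 ratio of tumour sample over reference unless another scale is named. A ratio of a probe is not comparable with that of another probe, so only differences between groups are read.

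Nuclear receptors are transcription factors that bind DNA through zinc fingers and, for many of them, switch on or off target genes when a lipid-soluble ligand enters the receptor. Steroid receptors act largely as pairs of themselves, while the thyroid hormone, vitamin D, liver X and peroxisome proliferator-activated receptors work as partners of the retinoid X receptors. The orphan members have no settled natural ligand, and several of them repress target genes. In the mammary gland, receptors of this family carry hormone and diet signals in epithelial cells and shape gene expression in fibroblasts and blood vessels.

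Stretches of 250 bases before the start of 3 receptors are shown because these 3 were the members that passed the test in a comparison below. They come from RefSeq on the GRCm38.p6 build, all on the minus strand, while the array headers name another build. The Vdr stretch is chr15:97908297-97908546, that of Nr2f1 is chr13:78198874-78199123 and that of Nr2f2 is chr7:70366747-70366996. Capitals mark the letters of the GC box, GGGCGG on either strand. They are read 5′ to 3′ as follows.
Vdr: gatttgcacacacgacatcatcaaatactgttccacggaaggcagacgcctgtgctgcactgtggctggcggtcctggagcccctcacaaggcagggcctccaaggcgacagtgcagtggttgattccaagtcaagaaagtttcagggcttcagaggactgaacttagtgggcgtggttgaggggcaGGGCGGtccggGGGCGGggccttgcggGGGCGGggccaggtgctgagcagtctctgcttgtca
Nr2f1: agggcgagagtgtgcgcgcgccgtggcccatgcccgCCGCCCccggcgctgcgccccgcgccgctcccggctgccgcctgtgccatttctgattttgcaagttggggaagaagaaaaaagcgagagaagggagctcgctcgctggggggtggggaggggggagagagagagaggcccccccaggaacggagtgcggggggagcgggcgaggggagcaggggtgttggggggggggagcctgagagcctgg
Nr2f2: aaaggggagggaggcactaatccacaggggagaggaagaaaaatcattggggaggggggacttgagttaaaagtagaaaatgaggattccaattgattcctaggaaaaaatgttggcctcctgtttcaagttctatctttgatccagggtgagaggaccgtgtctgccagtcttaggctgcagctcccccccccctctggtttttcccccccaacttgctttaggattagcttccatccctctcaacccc
The Vdr stretch held 3 GC boxes, that of Nr2f1 held 1 and that of Nr2f2 held none, against a share of 32.7% of 32851 RefSeq promoters of this length that hold at least 1. The nuclear receptor core site AGGTCA, searched on both strands, was in none of the 3, and 14.0% of all promoters hold it. Their GC contents were 61.2% for Vdr, 72.0% for Nr2f1 and 50% for Nr2f2, beside a median of 52.4% over all promoters. A second annotated start of Nr2f1 had neither motif.

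Of the 35 members, 25 passed the filter for detection (a Cy3 signal called well above background on 3 or more of the 12 arrays), a share of 71.4% beside 64.6% of all named genes. Of these 25 members, 16 were above background on all 12 arrays, among them the vitamin D receptor Vdr, the glucocorticoid receptor Nr3c1, the thyroid hormone receptor Thra, the estrogen receptor beta gene Esr2 and the peroxisome proliferator-activated receptors Ppara and Ppard. The other 9 were above background on 3 to 11 arrays. The 10 members that did not pass include the xenobiotic sensors Nr1i2 and Nr1i3 and the orphan receptors Nr2e1, Nr4a3 and Nr6a1. They also include the adrenal repressor Nr0b1 and the gut receptor Hnf4g, and none of these 7 was above background on any array. The clock repressor Nr1d1 was above background on 2 KO stroma arrays, Hnf4a on 1 array of KO epithelium and 1 of WT epithelium, and the estrogen-related receptor Esrrg on 1 KO epithelium array. The reference RNA itself was above background on no array for 8 of these 10.

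**Figure D1:**
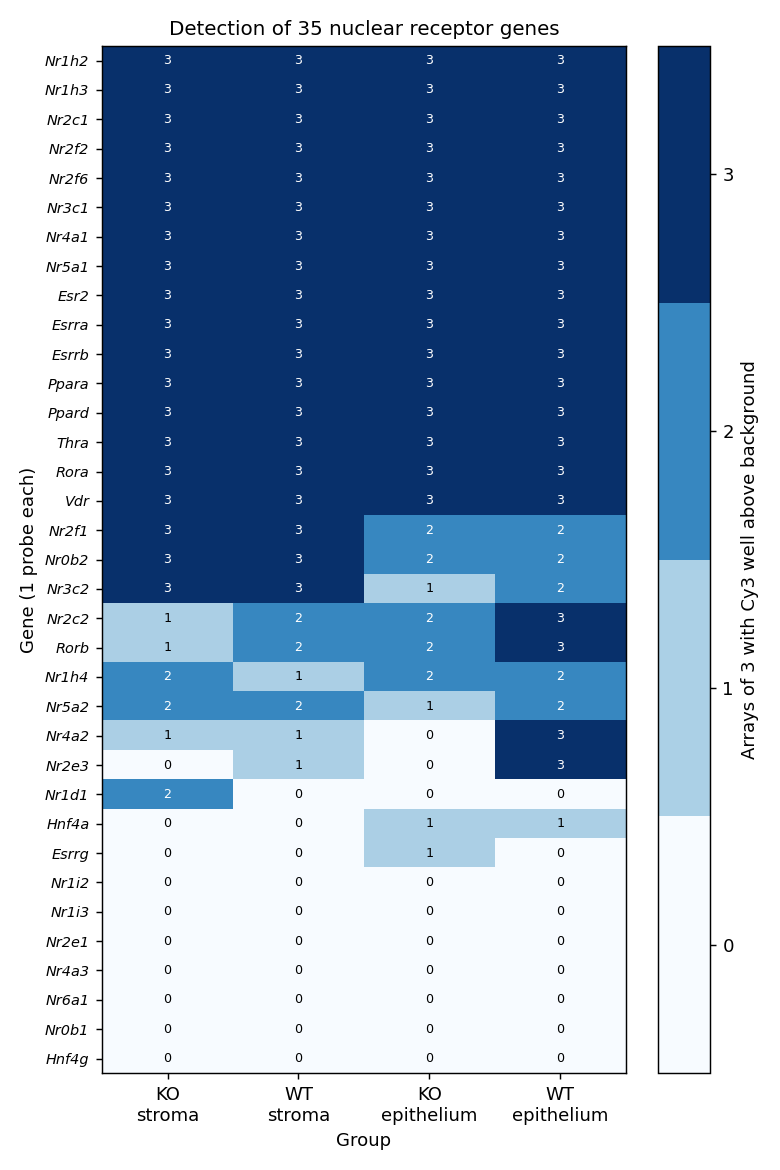
Arrays of 3 on which the tumour sample (Cy3) of each of the 35 receptors was well above background, by group, for 1 probe per gene. Colour and number give the count: 16 receptors reach 3 in every group, and 7 receptors stay at 0 in every group.

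The Rarb probe read 1.83, 2.09 and 0.57 in KO stroma, -0.01, -0.29 and 1.37 in WT stroma, -1.13, 1.36 and 0.50 in KO epithelium and -0.76, 0.85 and 0.77 in WT epithelium, so it was not lower in KO, and since its place relative to the deleted part is unknown it checks no label. The Wnt1 probe read 3.01, 3.80 and 2.90 in KO stroma, 7.20, 6.60 and 6.53 in WT stroma, 7.05 to 7.57 in KO epithelium and 7.14 to 7.67 in WT epithelium. The microdissection was checked with marker lists of cell types. The luminal epithelial list averaged 0.58 to 1.30 in KO stroma and 2.26 to 3.12 in WT stroma, and 2.83 to 3.25 in KO epithelium and 2.68 to 3.26 in WT epithelium. The fibroblast list averaged 2.73 to 3.09 in KO stroma, -0.19 to 1.46 in WT stroma, -3.16 to -0.36 in KO epithelium and -2.15 to 0.76 in WT epithelium. WT stroma therefore carried luminal marker levels that overlapped those of epithelium, and its arrays correlated with WT epithelium across genes at a mean r of 0.807, beside 0.818 among themselves, while KO stroma correlated with KO epithelium at 0.567. Of 13 measured luminal markers, 7 were lower in KO than in WT stroma and 0 were higher, and of 16 fibroblast markers 4 were higher and 0 lower. Of all genes, 3.51% were higher and 2.87% lower in that comparison. Epcam was above background on no KO stroma array, and Cdh1 on no array of any group. In these markers and in Wnt1 the WT stroma arrays thus stood nearer to epithelium than their label says, and whether they hold stroma as labelled was not settled. Every value below that uses WT stroma (KO against WT stroma, stroma against epithelium within WT tumours and over all 6 tumours, and the interaction) stands beside this, and its part in them was not tested. The contrast within KO tumours uses no WT stroma array, although all 12 arrays share the estimate of the spread. Other marker lists differed between arrays of 1 group. The lymphocyte list averaged 3.74 on WT stroma replicate 2, beside -0.36 and -0.24 on replicates 1 and 3. The adipocyte list averaged 5.66 on KO stroma replicate 3, beside 2.28 and 0.82 on replicates 1 and 4. It averaged 4.08 on WT epithelium replicate 2, beside 0.28 and 0.69 on replicates 1 and 3. The part of this spread in the values below was not tested. In bulk samples, fewer cells of a type and less RNA per cell cannot be told apart. All stroma arrays lie on 1 slide and all epithelium arrays on another, so compartment and slide cannot be told apart, and the KO arrays fill the first row of each slide with the WT arrays below them, so row and genotype cannot be told apart either. The reference channel of the 25 receptors that passed the filter differed between these rows by at most 0.18 upward and 0.32 downward (log2 -0.32), with 0 called in both compartments, and 8 of 25 were called between the slides, beside 29.8% of all genes.

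**Figure D2:**
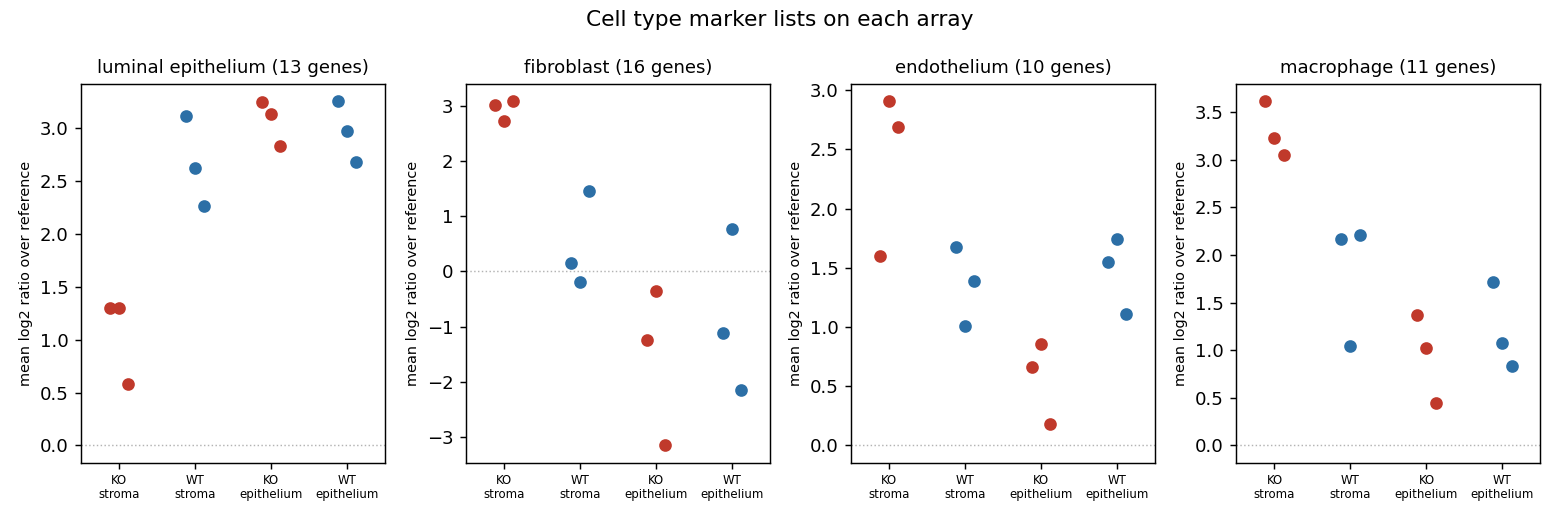
Mean log2 ratio of tumour sample over reference for luminal, fibroblast, endothelial and macrophage marker lists, 1 point per array, KO red and WT blue. KO stroma is lowest for luminal markers and highest for fibroblast and macrophage markers, while WT stroma overlaps WT epithelium for all 4 lists and KO epithelium for the luminal and macrophage lists.

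In KO tumours the stroma had more Nr2f1 and Nr2f2 and less Vdr than the epithelium of the same tumours, which were the 3 receptors of 25 that passed the test of stroma against epithelium within KO tumours (limma with tumour as a block, Benjamini-Hochberg adjustment over 13351 genes, threshold 0.05). In that comparison 20.0% of all genes passed, 10.2% higher and 9.83% lower in stroma. In all 6 tumours together, Nr2f1 (higher) and Vdr (lower) passed, beside 15.0% of all genes, 8.37% higher and 6.63% lower. Both counts, 3 of 25 and 2 of 25, are smaller shares than those of all genes. An unadjusted p under 0.05 was reached by 5 of 25 receptors in KO tumours, beside 34.9% of all genes, and by 6 of 25 in all tumours, beside 31.2%.

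Vdr encodes the receptor of active vitamin D. Its values were -0.49, -0.32 and -0.11 in KO stroma, and 0.83, 1.67 and 0.74 in KO epithelium, for tumours 1, 3 and 4. It had 1.21, 0.82 and 0.32 in WT stroma and 1.43, 0.95 and 0.47 in WT epithelium, for tumours 1, 2 and 3. All 3 KO stroma arrays lay below every other array, and WT stroma overlapped both epithelial groups. In KO tumours stroma minus epithelium was -1.31, -1.99 and -0.85, a mean difference of -1.39 (SE 0.23, 95% interval -1.93 to -0.84, adjusted p = 0.0102), which is 2.61-fold lower in stroma. In WT tumours the differences were -0.21, -0.13 and -0.15, with a fitted value of -0.17 (SE 0.23, interval -0.72 to 0.38, adjusted p = 0.905). Over the 6 tumours stroma was lower by 0.78 (log2 -0.78, SE 0.16, adjusted p = 0.0262) and lower in 6 of 6. Leaving out any tumour other than KO tumour 4 raised the adjusted p of this pooled value above the threshold (0.052 to 0.0789), whereas the value within KO tumours passed in all 13 alternative settings (0.00887 to 0.0464). The reference channel of the Vdr probe differed by -0.0021 (log2) between the stroma and the epithelium slide.

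Nr2f1 encodes COUP-TFI, an orphan receptor of mesenchymal and neural cells. Its values were -0.65, -0.66 and 0.56 in KO stroma and -2.14, -2.38 and -2.29 in KO epithelium, so the groups did not overlap. WT stroma had -1.49, -1.77 and -0.55 and WT epithelium -1.99, -1.24 and -2.49, which overlap. Stroma minus epithelium was 1.49, 1.72 and 2.84 in KO tumours, with a fitted difference of 2.02 (SE 0.47, interval 0.89 to 3.15, adjusted p = 0.0289), 4.05-fold higher in stroma. In WT tumours it was 0.50, -0.53 and 1.94 (fitted 0.64, SE 0.47, adjusted p = 0.781). Over all tumours the difference was 1.33 (SE 0.34, adjusted p = 0.0435), higher in 5 of 6. With Agilent's processed signals the KO tumour difference was 3.34 and did not pass (adjusted p = 0.0696), nor did it without KO tumour 1, 3 or 4 or WT tumour 1 (0.0543 to 0.125). The pooled difference did not pass with processed signals (2.13, adjusted p = 0.107), with no filter on dim probes (0.0592) or without any single tumour other than WT tumour 2 (0.0773 to 0.119). The reference channel of this probe was 0.25 lower on the stroma slide (log2 -0.25, adjusted p = 0.00607). The Nr2f1 probe in use was above background on 3 arrays of each stroma group but on only 2 arrays of each epithelial group. The epithelial side of its differences thus lies partly at background. A second Nr2f1 probe was above background on only 2 KO stroma arrays and did not pass the filter.

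Nr2f2 encodes COUP-TFII, a close relative of Nr2f1 that is known for its role in veins and in mesenchyme. Its values were -2.21, -0.42 and -1.09 in KO stroma and -3.11, -2.30 and -3.99 in KO epithelium. WT stroma had -2.63, -2.25 and -1.89 and WT epithelium -3.18, -1.76 and -3.72. The KO groups did not overlap, and the WT groups did. Stroma minus epithelium was 0.90, 1.89 and 2.89 in KO tumours, fitted at 1.89 (SE 0.50, interval 0.69 to 3.09, adjusted p = 0.0421), 3.71-fold higher in stroma. In WT tumours it was 0.55, -0.50 and 1.83, fitted at 0.63 (SE 0.50, adjusted p = 0.798). Over all tumours it was 1.26 (SE 0.36, adjusted p = 0.0592) and higher in 5 of 6, which did not pass. The KO tumour difference did not pass with processed signals (adjusted p = 0.0731), with no filter (0.059), without the tumour block (0.0508) or without KO tumour 1, 3 or 4 or WT tumour 1 (0.0598 to 0.167).

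**Figure D3:**
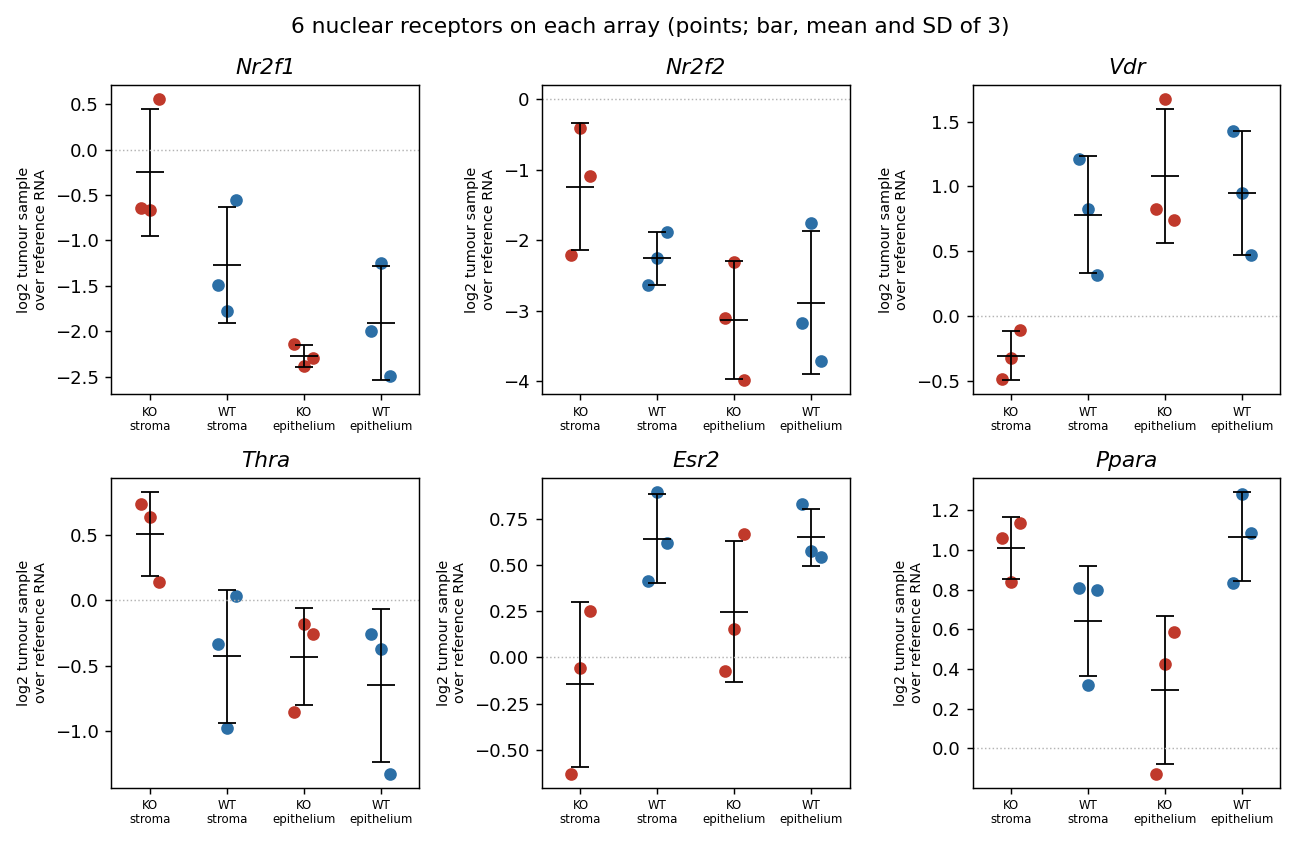
Log2 ratio of tumour sample over reference for 6 receptors on each array (points), with the mean and SD of 3 arrays per group. KO stroma lies above KO epithelium for Nr2f1 and Nr2f2 and below every other group for Vdr.

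The difference of the KO effect between compartments, tested as an interaction, passed for none of the 25 receptors and for 0% of all genes at the same threshold, though 2413 genes (18.1%) had an unadjusted p under 0.05. Of the receptors, 3 had such an unadjusted p: Vdr at -1.22 (SE 0.33, adjusted p = 0.143), the immediate-early orphan receptor Nr4a1 at -1.52 (SE 0.42, adjusted p = 0.151) and Ppara at 1.14 (SE 0.35, adjusted p = 0.177). Stroma minus epithelium had opposite signs in all KO and all WT tumours for 2 of 25 receptors, Ppara and Nr3c2, beside 2.88% of all genes. The reference channel of the probes that stand for them was higher on the stroma slide, by 0.28 and 0.42. Nr4a1 was 1.01 higher in WT stroma than in WT epithelium (SE 0.30, adjusted p = 0.442) and 0.51 lower in KO stroma than in KO epithelium (log2 -0.51, SE 0.30, adjusted p = 0.265). In WT tumours, whose stroma arrays carried the luminal marker levels given above, no receptor passed, beside 0.00749% of all genes. An unadjusted p under 0.05 was reached there by 2 of 25, Nr4a1 and Nr2e3, beside 8.79% of all genes. Nr2e3 passed the filter only through WT epithelium, the higher group of this contrast, so this count carries that limit.

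**Figure D4:**
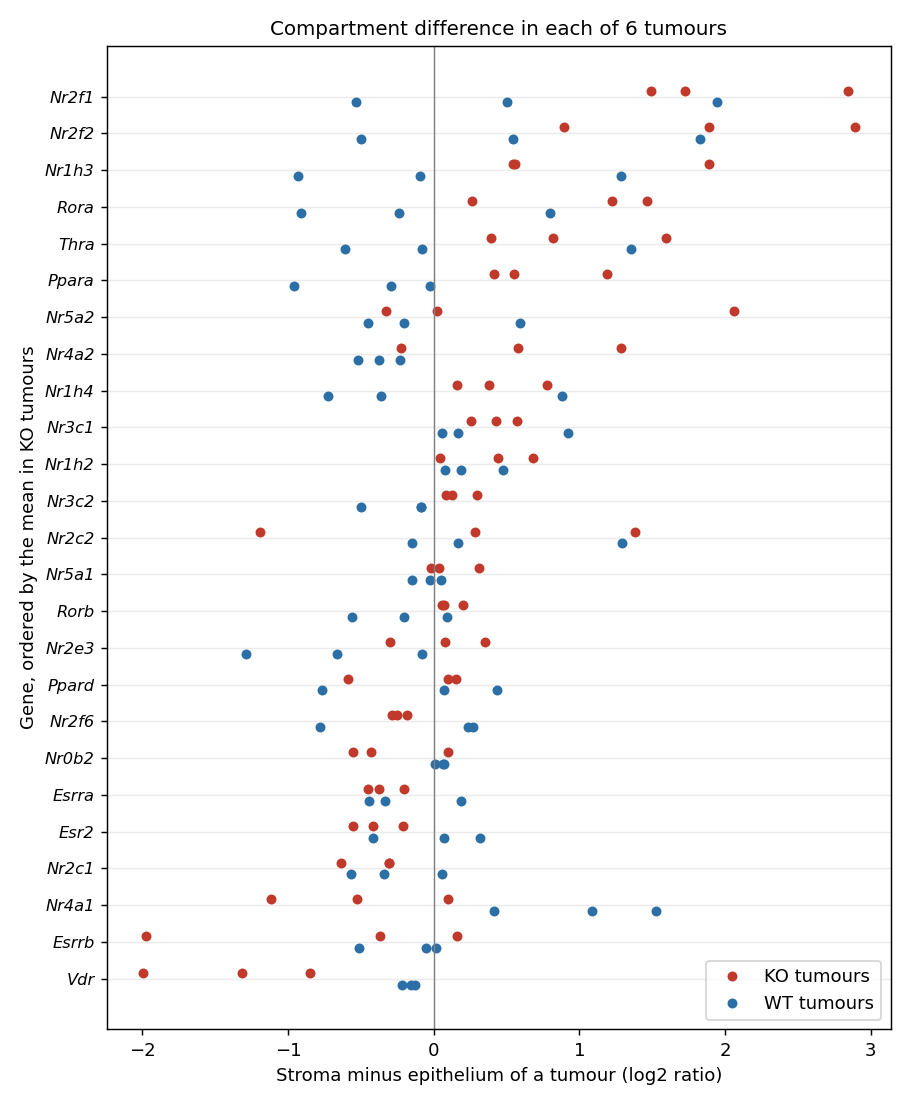
Stroma minus epithelium of the log2 ratio in each tumour for the 25 detected receptors, ordered by the mean in KO tumours (KO red, WT blue). Nr2f1 and Nr2f2 lie at the top and Vdr at the bottom, and the 3 WT points of Vdr lie close to 0.

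Between KO and WT stroma none of the 25 receptors passed, beside 6.37% of all genes (3.51% higher and 2.87% lower), and 4 receptors had an unadjusted p under 0.05, beside 21.5% of all genes. Vdr was 1.09 lower in KO stroma (log2 -1.09, SE 0.33, interval -1.81 to -0.37, adjusted p = 0.0756) and its groups did not overlap. Esr2, which encodes estrogen receptor beta, averaged -0.14 ± 0.45 in KO stroma (SD, n = 3), against 0.64 ± 0.24 in WT stroma (SD, n = 3), without overlap, and its difference of -0.79 had an adjusted p of 0.103. Thra, the alpha thyroid hormone receptor, had 0.51 ± 0.32 in KO stroma (SD, n = 3), against -0.43 ± 0.51 in WT stroma (SD, n = 3), also without overlap, with a difference of 0.93 (SE 0.35, adjusted p = 0.145). Its second probe gave a KO minus WT difference of 0.34. Nr2f1 was 1.02 higher in KO stroma (SE 0.42, adjusted p = 0.191) and Nr2f2 1.02 higher (SE 0.60, adjusted p = 0.368), and their groups overlapped. Without KO stroma replicate 4 the Nr2f1 difference was 0.62, and without KO stroma replicate 3 the Nr2f2 difference was 0.61 (adjusted p = 0.438 and 0.671), while Agilent's processed signals gave 1.61 for Nr2f1 (adjusted p = 0.281). Nr3c1, the glucocorticoid receptor, differed by -0.21 (interval -0.92 to 0.50) and the mineralocorticoid receptor Nr3c2 by 0.17 (interval -0.18 to 0.52). Groups did not overlap for 2 receptors that were higher and 2 that were lower in KO stroma, beside 26.2% of all genes (13.1% in each direction). The 2 higher ones were Thra and Ppara. The Ppara difference was 0.37 (adjusted p = 0.395), while its other 2 probes gave -0.52 and -0.15.

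In epithelium none of the 25 receptors passed KO against WT, beside 0.00749% of all genes (1 gene), and 2 receptors had an unadjusted p under 0.05, beside 8.07% of all genes. Ppara, the fatty acid sensor of the liver that drives fat oxidation, had -0.13, 0.42 and 0.58 in KO epithelium and 0.83, 1.28 and 1.09 in WT epithelium, so the groups did not overlap. Its difference was -0.77 (SE 0.23, interval -1.28 to -0.27, adjusted p = 0.609). The other 2 Ppara probes gave -0.07 and -0.02, so the difference was read by 1 of 3 probes, and the mean of the 3 probes gave -0.29 (adjusted p = 0.725). The photoreceptor receptor Nr2e3 was well above background on 3 WT epithelium arrays, 1 WT stroma array and no KO array. It thus passed the filter only through WT epithelium, the group where it read high. The counts in this paragraph that include it carry that limit. Its Cy3 signal gave at least 1.47-fold lower in KO than in WT epithelium. This bound sets the WT mean of the Cy3 signal after loess and Aquantile against the higher of the KO signal and the lowest signal of probes well above background, and it is open to dye bias. The log2 ratio of Nr2e3 was 0.10, 0.34 and 0.34 in KO epithelium and 0.70, 1.52 and 0.41 in WT epithelium, a difference of -0.62 (SE 0.26, adjusted p = 0.613). It was -0.29 without WT epithelium replicate 2, the highest array (adjusted p = 0.75), and -1.76 with Agilent's processed signals (adjusted p = 0.712). The reference RNA for Nr2e3 was above background on no array. Nr4a2, an orphan receptor of dopaminergic neurons, was also not well above background in any KO epithelium array. It was above background on 3 WT epithelium arrays, 1 KO stroma array and 1 WT stroma array. Without WT epithelium it too would not have passed the filter. Its ratio differed by -0.37 (interval -1.17 to 0.44, adjusted p = 0.827) with overlapping groups. The RORalpha gene Rora had 0.45 ± 0.79 in KO epithelium and 1.81 ± 1.38 in WT epithelium (SD, n = 3 each), a difference of -1.36 (SE 0.74, interval -2.99 to 0.28, adjusted p = 0.664). Groups did not overlap for 1 receptor that was higher (Nr4a1, 0.88, adjusted p = 0.697) and 3 that were lower in KO epithelium, beside 14.0% of all genes, 9.54% higher and 4.48% lower. Of the 25 receptors, 18 had a negative estimate in epithelium with a median of -0.24, beside a median of 0.03 over all genes, and in stroma 13 were positive and 12 negative.

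**Figure D5:**
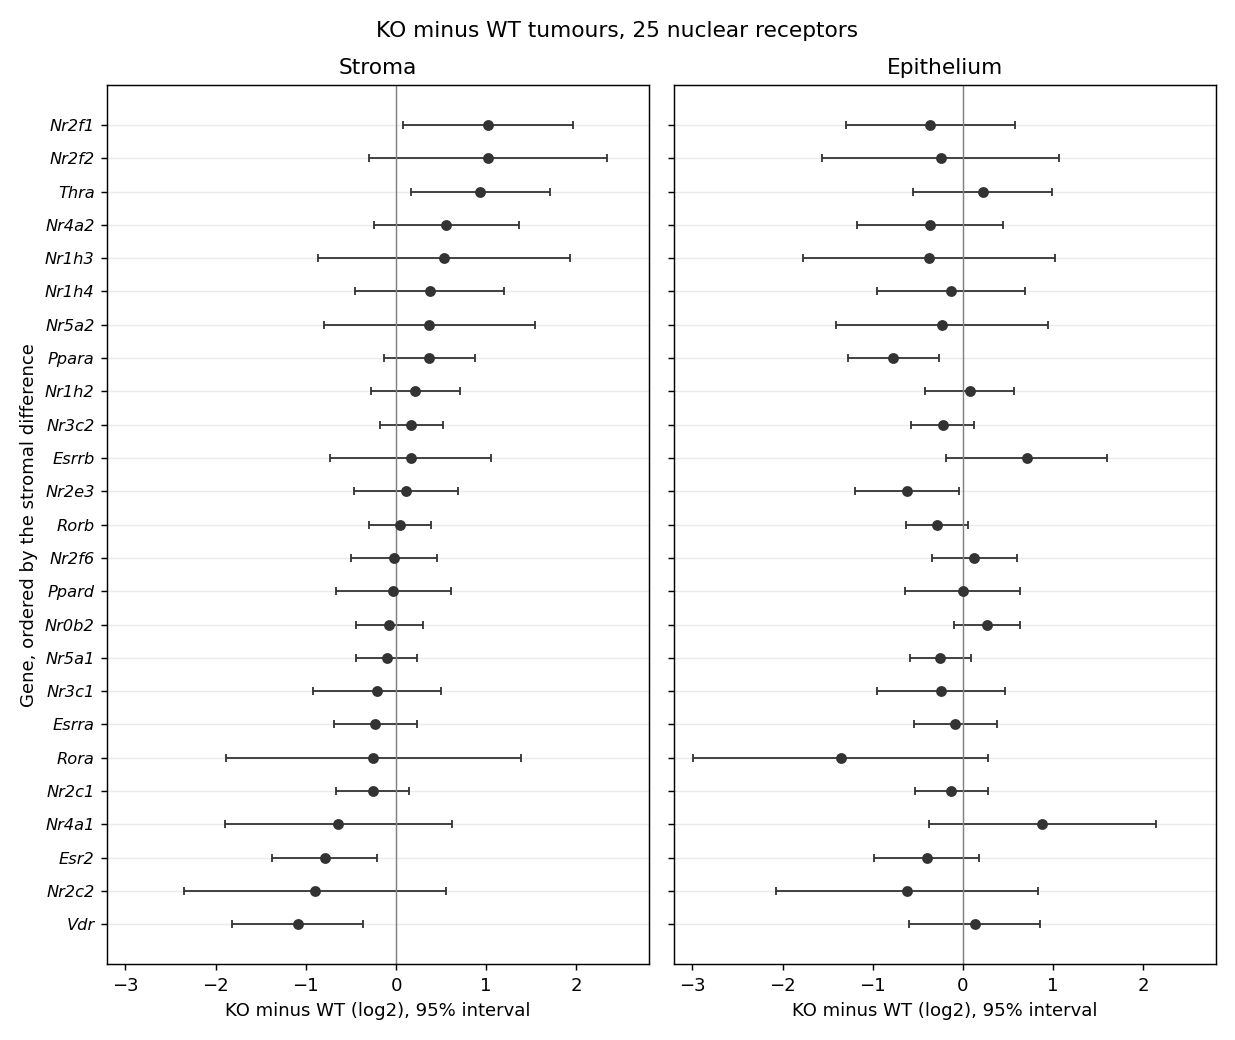
KO minus WT difference of the log2 ratio with its 95% interval for 25 receptors, in stroma (left) and epithelium (right), ordered by the stromal difference. The intervals of Vdr, Esr2, Thra and Nr2f1 lie off 0 in stroma and those of Ppara and Nr2e3 lie off 0 in epithelium. Nr2e3 passed the filter only through WT epithelium, where it read high.

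No lipid-sensing receptor passed by genotype in either compartment. The liver X receptors Nr1h2 and Nr1h3, which sense oxysterols, gave KO minus WT stromal differences of 0.22 (interval -0.28 to 0.71) and 0.53 (interval -0.87 to 1.93). The bile acid receptor Nr1h4 gave 0.37 (interval -0.45 to 1.20) and Ppard -0.03 (interval -0.66 to 0.61). Of 12 measured liver X receptor target genes, 1 was higher and 1 lower in KO stroma, beside 3.51% and 2.87% of all genes. Pltp, a phospholipid transfer protein, was higher (1.70, SE 0.40, adjusted p = 0.035). Srebf1, the lipogenic transcription factor, was lower (-1.78, SE 0.28, adjusted p = 0.00784). The median of the 12 was -0.06 beside -0.01 over all genes. Within KO tumours, 4 of the 12 were higher and 2 lower in stroma than in epithelium, beside 10.2% and 9.83% of all genes and with 16 of 16 fibroblast and 10 of 11 macrophage markers higher, whose part was not tested. The median of the 12 was 0.38 beside -0.03 over all genes, with Apoe, an apolipoprotein, at 1.66 and Srebf1 at -1.77 (adjusted p = 0.00596 and 0.0123). Of 16 measured targets of the peroxisome proliferator-activated receptors, 0 passed between KO and WT stroma, and Angptl4, a lipase inhibitor, was higher in stroma within KO tumours (2.53, SE 0.61, adjusted p = 0.0308) while Acaa2, an enzyme of fatty acid oxidation, was lower (-0.68, SE 0.19, adjusted p = 0.0498). Nr1h2 and Nr3c1 were higher in stroma than in epithelium in all 6 tumours and did not pass (0.32 and 0.40, adjusted p = 0.156 and 0.122), and Nr3c1 gave 0.27 without WT tumour 3. Signs agreed in all 6 tumours for 3 of 25 receptors, these 2 and Vdr, beside 15.1% of all genes.

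The remaining orphan and clock receptors gave no call in any comparison. The retinoid-related orphan receptor Rora, an activator of clock genes, was 0.98 higher in stroma within KO tumours (SE 0.37, adjusted p = 0.107) and higher in 3 of 3, and differed by -0.25 between KO and WT stroma (interval -1.89 to 1.38). Its relative Rorb, a neural receptor, differed by 0.04 between KO and WT stroma (interval -0.30 to 0.38) and by -0.29 between KO and WT epithelium (interval -0.63 to 0.05). The testicular receptors Nr2c1 and Nr2c2 gave -0.26 (interval -0.66 to 0.14) and -0.90 (interval -2.35 to 0.55) in stroma, and the second Nr2c2 probe gave -0.02 there. Nr2c1 was lower in stroma than in epithelium in 5 of 6 tumours (-0.35, SE 0.13, adjusted p = 0.12). Nr2f6, a further relative of the COUP-TF receptors, gave -0.02 (interval -0.50 to 0.45) in stroma and 0.13 (interval -0.35 to 0.60) in epithelium. The estrogen-related receptor Esrra, a regulator of mitochondrial genes, gave -0.23 (interval -0.69 to 0.23) in stroma, and Esrrb, known from pluripotent cells, gave 0.70 (interval -0.18 to 1.59) in epithelium. The steroidogenic receptor Nr5a1 gave -0.10 (interval -0.44 to 0.24) in stroma and its relative Nr5a2 gave 0.37 (interval -0.80 to 1.55). Nr0b2, a repressor that lacks a DNA-binding domain, gave -0.08 (interval -0.45 to 0.29) in stroma and 0.27 (interval -0.10 to 0.64) in epithelium. The reference RNA was above background on no array for Nr5a2 and on 2 arrays for Nr0b2, so their ratios rest on a dim reference signal. The reference channel moved by 0.58 for Nr5a1 and by -0.39 for Esrra between the stroma and the epithelium slide (adjusted p = 0.00012 and 0.000646).

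Genes that work with the receptors were counted from lists. Of 18 measured coregulators, 0 passed between KO and WT in either compartment, and Hsp90aa1, the chaperone that holds steroid receptors, was lower in stroma within KO tumours (-1.01, SE 0.21, adjusted p = 0.021). Of 13 glucocorticoid receptor targets, Dusp1, a phosphatase of MAP kinases, was higher in stroma over all tumours (0.91, SE 0.13, adjusted p = 0.00777), and 0 passed by genotype. Of 10 measured clock genes, Tef, a transcription factor of clock output, was higher in KO than in WT stroma (1.63, SE 0.41, adjusted p = 0.0441), and within KO tumours Dbp, another, was higher (2.60, SE 0.68, adjusted p = 0.0407) and the repressor Bhlhe41 lower (-1.04, SE 0.22, adjusted p = 0.0215) in stroma. Of 13 estrogen-related receptor targets, Sdha, a subunit of succinate dehydrogenase, was lower in KO than in WT stroma (-0.79, SE 0.16, adjusted p = 0.0188), and within KO tumours Sdha was lower (-0.71) and Ckb, a creatine kinase, higher (1.49) in stroma (adjusted p = 0.0246 and 0.0261). Of 7 measured genes of vitamin D metabolism and response, 0 passed in any comparison, and the vitamin D degrading enzyme Cyp24a1 gave -0.47 between KO and WT stroma (adjusted p = 0.252). Cyp24a1 was dim in every group, above background on 0 KO stroma, 1 WT stroma, 1 KO epithelium and 2 WT epithelium arrays. Of 6 measured thyroid hormone genes, Dio2, the deiodinase that activates the hormone, was higher in stroma within KO tumours (2.67, SE 0.39, adjusted p = 0.00656), while Crym, a binder of thyroid hormone, and Hr, a corepressor of the thyroid hormone receptor, were lower (-4.07, SE 0.63, adjusted p = 0.00824 and -1.44, SE 0.32, adjusted p = 0.0241). Of 7 measured immediate-early genes and 6 retinoid receptors, 0 passed in any comparison. Of 6 measured further receptors, Pgr, the progesterone receptor, was lower (-2.35, adjusted p = 0.0104) and Pparg, the fat cell receptor, higher (2.44, adjusted p = 0.0386) in stroma within KO tumours. Of 3 measured xenobiotic and bile acid targets, Por, the electron donor of cytochrome P450 enzymes, was higher in stroma within KO tumours (0.82, adjusted p = 0.0399). In stroma against epithelium within KO tumours, where 20.0% of all genes passed, 11 of 13 luminal markers were lower beside the fibroblast and macrophage markers that were higher. Of 10 endothelial markers 5 were also higher. Of 8 adipocyte markers 1 passed as higher, Fabp4 (4.20, adjusted p = 0.0201), and all 8 estimates were positive with a median of 1.97. The part of these markers in the values above was not tested. Between KO and WT stroma, where Tef and Sdha passed, 6.37% of all genes passed.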

How the data were processed

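The members and gene lists were chosen with earlier results of these data known. Per the labels, RNA of laser-captured tumour compartments carried Cy3 and the common mouse reference RNA carried Cy5 on every array. The deposited scanner files hold the median intensity of spots and local background, flags and a log10 ratio, per the file headers, read by Agilent Feature Extraction 10.7.3.1. The deposited value table holds log2 values. Its epithelial columns ran opposite to sample over reference (r -0.895 to -0.925 across probes), with medians from -0.035 to 0.0343, and were used as an alternative with the sign turned. Its stromal columns (medians -0.00731 to 0.0293) matched no array (r near 0) and were not used, so their scale, centring and direction stay unknown. How that table was made is not stated in the labels or headers used here.

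Median signals were corrected with normexp (offset 50) and loess within each array in limma 3.58.1 under R 4.3.3, control spots at weight 0, non-uniform spots missing (211 on WT epithelium replicate 3, at most 16 elsewhere), and no spot was saturated. Between 36% and 46.3% of probes were well above background. Probes were named by accession against RefSeq genes of GRCm38.p6. Each gene was represented by its brightest probe that passed the filter, leaving 13351 genes. KO and WT were compared in a fit of 4 group means (8 residual degrees of freedom), and stroma and epithelium with tumour as a fixed block (4). The number of arrays limits the precision. Compartments were paired by the genotype and number in the titles. Deviations from the group means correlated within these pairs at 0.0915, 0.287 and 0.226 for KO and 0.455, 0.289 and 0.253 for WT. Fits were tested on simulated data. The position of the Rarb probe relative to the deletion is not known here, so it checks no label. Named are all 35 receptors, values per array for those that passed or differed without overlap by at least 1, and up to 4 genes of each list.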

Additional observations from a re-analysis of the deposited data

Results flagged for a closer look

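Stroma minus epithelium had 1 sign in all 3 KO tumours and the other sign in all 3 WT tumours for 2 of 25 receptors, beside 2.88% of all genes. Ppara was higher in stroma by 1.19, 0.41 and 0.55 in KO tumours and lower in WT tumours (-0.02, -0.96 and -0.29), and the interaction was 1.142 (adjusted p = 0.177). Its other 2 probes gave -0.04 and -0.27 in KO tumours and 0.41 and -0.13 in WT tumours. Nr3c2 gave 0.13, 0.30 and 0.08 in KO tumours and -0.09, -0.50 and -0.09 in WT tumours, with an interaction of 0.3939 (adjusted p = 0.417). Its probe was above background on only 1 KO epithelium and 2 WT epithelium arrays. The reference RNA was above background for it on 5 arrays, so these ratios rest on dim signals. Neither interaction passed.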

How the results depend on the processing

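The receptor differences recomputed were those with an unadjusted p under 0.05, and Nr2f2 between KO and WT stroma. None of them changed direction in any alternative, and Aquantile leaves the ratios as they are by construction. Reading Ppara from another of its probes alone was not among the alternatives. Within KO tumours its probe in use gave 0.72 and its other 2 probes gave -0.04 and -0.27. Genes that passed KO against WT in epithelium numbered 0, in place of 1, under the filter on all 12 arrays, with Agilent's processed signals, in the 6 arrays of the compartment alone and in the deposited table, and 0 to 0 when an array was left out. In stroma 544 genes passed with processed signals, 292 in the 6 arrays alone, and 175 to 887 with an array left out, in place of 851. Between compartments 1 receptor passed with processed signals and with no filter, in place of 2. It was also 1 with the filter on all 12 arrays, which removed Nr2f1 (above background on 10 arrays) before the test. With a tumour left out, 939 to 1386 genes and 0 to 2 receptors passed. Within KO tumours 1 receptor passed with processed signals, and 1097 to 2716 genes and 1 to 3 receptors with a tumour left out. Within WT tumours 0 genes passed with processed signals, with the filter on all 12 arrays and with a tumour left out (0 to 0). For the interaction 22 genes passed with no filter, 92 with the filter on all 12 arrays, 101 with array weights and 0 to 135 with a tumour left out. Without the replicate block 0 genes passed within WT tumours, 50 for the interaction and 1835 between compartments, and Nr2f2 within KO tumours had an adjusted p of 0.0508. With tumour as a random replicate block 824 genes passed in stroma and 1 in epithelium. With the mean of a gene's kept probes Ppara gave 0.13 within KO tumours and 0.19 for the interaction, and Nr2e3 within WT tumours gave -0.37 without WT tumour 2. With processed signals Rora gave 1.78 within KO tumours, and Nr2e3, which passed the filter only through WT epithelium, gave -2.28 within WT tumours. The cause of these changes was not tested. The 3 arrays per group limit every comparison, the slides limit those between compartments, and dim probes limit the 9 receptors above background on 3 to 11 arrays.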
